A study of Rattus norvegicus with 15 samples.

Results

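The comparison described here set 3 cultures of a Rat1a line that expressed mouse MYC with the K158R substitution (R158) against 3 cultures of a line with the empty vector (EV), 6 of the 15 libraries of the series. The members were taken from the titles of the samples. Rat1a is an established rat fibroblast cell line, although the labels call the cells normal primary fibroblasts, and it keeps its own rat Myc gene. All cultures were grown attached to the dish in high-glucose medium with serum. The other 9 libraries came from lines with wild-type mouse MYC (WT), K149R MYC (R149) or K323R MYC (R323), 3 of each, and were used here to estimate the spread and to test where R158 differed from them. Each construct was carried by 1 stable line, so the construct and the line cannot be told apart. The promoter that drove the introduced MYC is not given in the sources used here. The 3 libraries of a line are described as biological replicates, with no word on separate derivations of a line, so p-values measure the spread between these cultures.

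MYC is a transcription factor of the basic helix-loop-helix leucine zipper family, which binds DNA together with its partner MAX and recruits enzymes that acetylate chromatin. It is known for raising genes of ribosome production, metabolism and cell division in growing cells, and for lowering other genes, among them genes of matrix and adhesion in fibroblasts. MYC itself is acetylated on lysines by such enzymes. In R158 one such lysine was exchanged for arginine, a residue of like charge that these enzymes do not acetylate. The question the comparison addresses is which RNAs differ when cells carry this form of MYC in place of no added MYC.

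The files name genes only by rat Ensembl identifiers, and 0 of the 32545 identifiers could be paired with a symbol through the reference tables at hand. Ribosomal, metabolic, matrix or cell cycle genes could therefore not be picked out, nor could Myc or the markers of fibroblasts, and the labelled cell type was not checked. Genes are described below in groups set by size of change, abundance and pattern across lines. The 2 largest rises and 2 largest falls are given by identifier.

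The EV libraries held 19185530, 44652491 and 18507149 counts and the R158 libraries 13303631, 29344836 and 16872494. Levels are given as CPM, each count divided by the library's total after scaling by the trimmed mean of M values (TMM) and set to a common depth. Every EV library had more genes at 1 CPM than every R158 library: 12085 to 12192 genes reached it in EV, and 11845 to 12074 in R158. The numbers of genes with any count overlapped, at 15679 to 17150 in EV and 15056 to 16488 in R158. The part of the difference at 1 CPM in the results was not tested. The typical gene differed between 2 R158 cultures by 0.239 to 0.297 on the log2 scale, taken as the median absolute difference over the 13676 genes tested. Between 2 EV cultures it was 0.121 to 0.236, with EV replicate 1 the farthest from the other EV cultures. Between an EV and an R158 culture it was 0.286 to 0.454. These ranges overlapped narrowly, since the 2 smallest differences from EV, both of R158 replicate 3, fell below the difference between R158 replicates 1 and 2. The median difference was 0.247 between R158 cultures, 0.230 from R158 to R149, 0.261 to WT and 0.278 to R323. Each R158 culture had its nearest library in another MYC line, although those lines together offer more libraries than R158 itself. The nearest library to R158 replicate 1 was WT replicate 1, at 0.131, and the nearest to R158 replicates 2 and 3 were R149 replicates 3 and 2, at 0.209 and 0.148. The largest difference between R158 and another MYC line was 0.364, with R149. The nearest library of each EV culture was another EV culture.

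**Figure D1:**
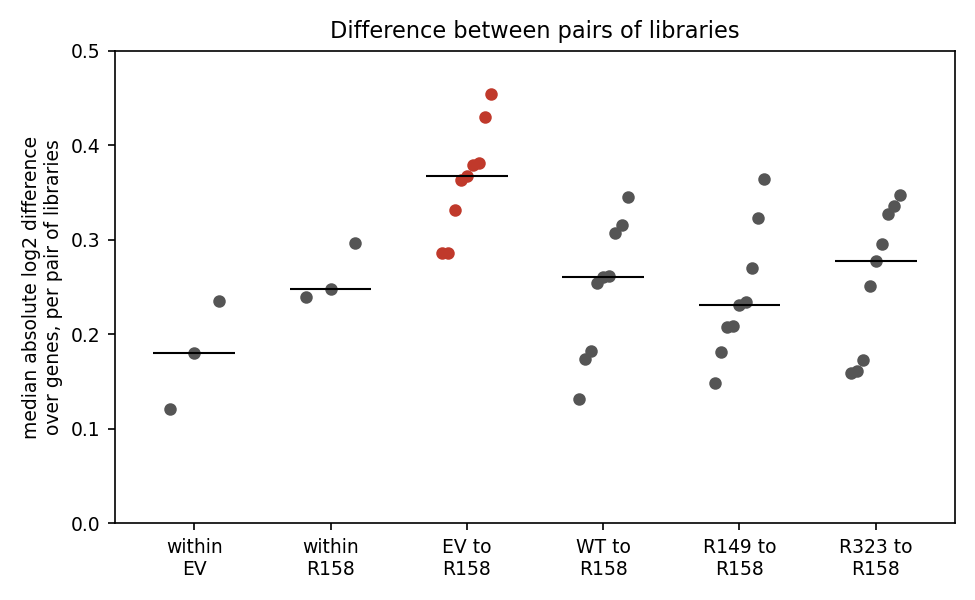
Median absolute log2 difference in CPM over genes (vertical axis) for each pair of libraries, by the lines that the pair came from (horizontal axis). Points are pairs of libraries and bars are medians. Pairs of EV and R158 (red) ran from 0.286 to 0.454, while R158 cultures differed from each other by 0.239 to 0.297.

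Of the genes tested, 28.5% differed between R158 and EV. The R158 line had 1967 genes higher and 1925 genes lower than EV, 14.4% and 14.1% of the 13676 genes tested (edgeR quasi-likelihood test, Benjamini-Hochberg adjusted p below 0.05). Changes above 2-fold were mostly falls: 240 genes rose (1.75% of the genes tested) and 637 fell (4.66%) by at least 2-fold, together 6.41%, and falls made up 72.6% of them. In every alternative analysis that was run, falls made up between 69.5% and 77.9% of the changes of at least 2-fold. The balance of all calls was not stable, since 18 of 22 alternatives called more genes lower than higher. The number called fell from 3892 to 2488 without EV replicate 2 (1193 higher) and to 2108 without EV replicate 3 (947 higher and 1161 lower), and the rises of at least 2-fold fell to 153 without EV replicate 3. In RNA from whole cultures, a change in every cell and a change in the share of cells that carry an RNA cannot be told apart.

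The smallest changes leaned the other way. Among genes called with a change under 1.5-fold, 1035 rose and 644 fell. Between 1.5-fold and 2-fold the numbers were 692 and 644. With scaling by library size alone, which called 1555 genes higher and 2172 lower, rises still led under 1.5-fold (871 and 706), but over all changes under 2-fold the lean turned, from 1727 rises and 1288 falls to 1355 and 1467. From 2-fold to 4-fold, 174 genes rose and 464 fell, and from 4-fold to 8-fold, 29 rose and 119 fell. At 8-fold or more, 37 rose and 54 fell. The median log2 fold change was 0.57 over the genes called higher and -0.77 over those called lower, and 0.01 over all genes tested.

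**Figure D2:**
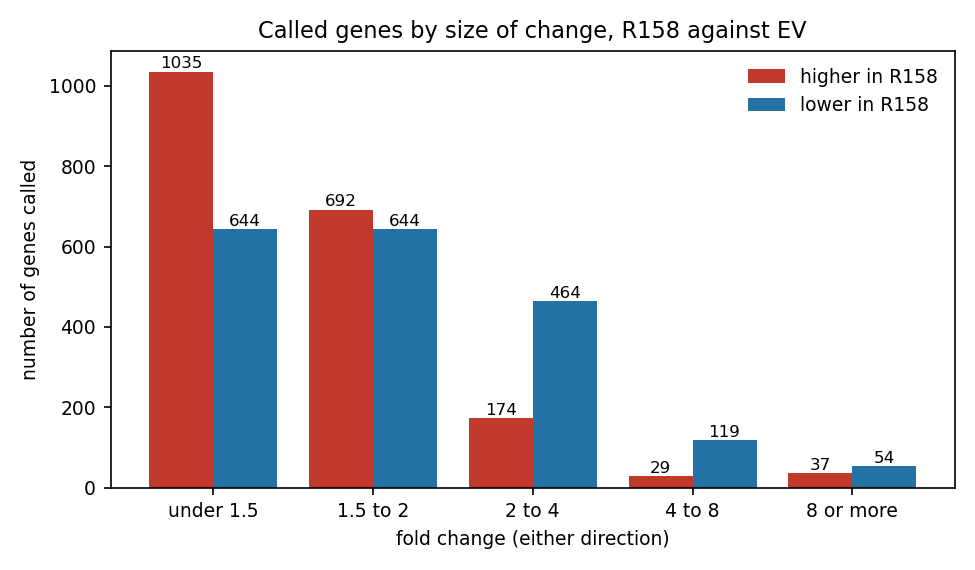
Number of genes called in R158 against EV (vertical axis) by size of the fold change (horizontal axis), with rises in red and falls in blue. Rises outnumber falls under 1.5-fold (1035 and 644), and falls outnumber rises from 2-fold to 4-fold (464 and 174).

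The libraries of the 2 lines separated for most of the genes called. All 3 R158 libraries lay above all 3 EV libraries for 1874 of the 1967 genes called higher, and below them for 1865 of the 1925 called lower. Over all genes tested, 2954 (21.6%) lay above EV in every library and 3105 (22.7%) below, so 1080 and 1240 genes separated without being called. Among changes of at least 2-fold, 233 of 240 rises and 630 of 637 falls separated. These are descriptions of the same libraries that gave the calls.

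The remaining 9784 genes were not called, which does not show that they were equal. For 7310 of them (74.7%) the 95% interval of the fold change lay inside 2-fold in either direction, and for 4646 (47.5%) it lay inside 1.5-fold. For the other 2474 genes a 2-fold change could not be told from none at this depth and spread.

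Rises and falls differed in the abundance of the genes concerned. Genes were ranked by their mean level in the 9 libraries of the other MYC lines, which do not enter the difference itself, and divided into quartiles of 3419 genes with median levels of 0.95, 12, 39.6 and 129 CPM. From the least to the most abundant quartile, 4.71%, 11.8%, 17.2% and 23.8% of genes were called higher in R158. The share called lower was 14.6%, 18%, 13.8% and 9.92%. Of the 637 falls of at least 2-fold, 413 lay in the least abundant quartile and 24 in the most abundant. Of the 240 rises of that size, 136 lay in the least abundant and 32 in the most abundant quartile. Small changes are harder to call at low counts, and a gene that all MYC lines lower ranks lower in these libraries for that reason. The share of either in the gradient was not tested.

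**Figure D3:**
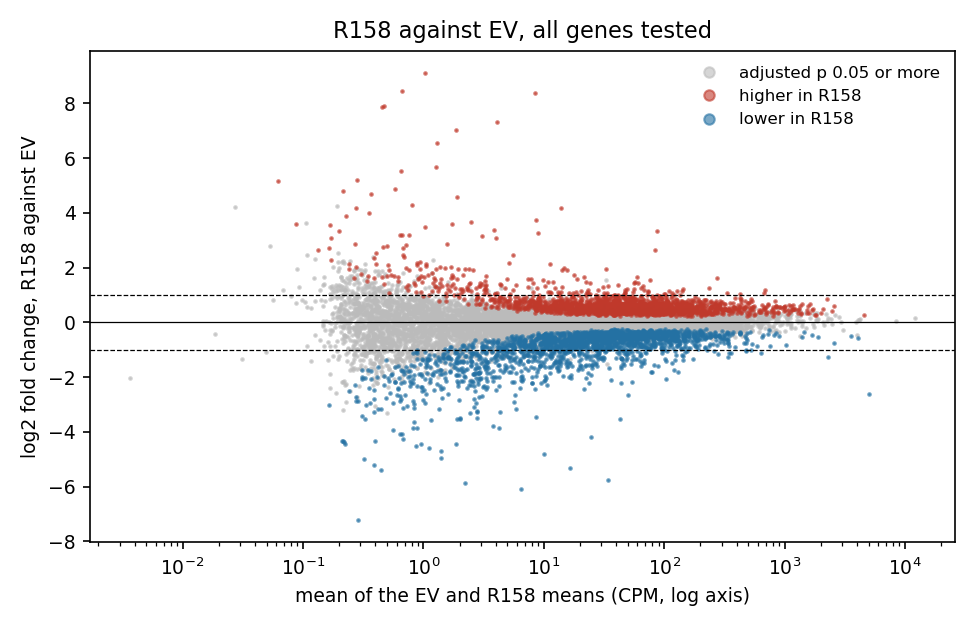
Log2 fold change of R158 against EV (vertical axis) by mean level in CPM (horizontal axis, log scale) for each gene tested. Red and blue points are genes called higher and lower, grey points were not called, and dashed lines mark 2-fold. The 637 falls of at least 2-fold outnumber the 240 rises, and most of both lie at low levels.

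The genes that changed by at least 2-fold held a small part of each library, and all genes called held a larger part. The genes called lower held 14.7%, 15.5% and 16.6% of all counts in EV replicates 1, 2 and 3, and 9.10%, 8.40% and 10.1% in R158. The genes called higher held 19.1%, 18.9% and 17.9% in EV and 25.5%, 27.5% and 24.4% in R158. The 637 genes with falls of at least 2-fold held 2.79%, 2.99% and 3.33% in EV and 0.995%, 0.820% and 1.13% in R158. The 240 genes with rises of that size held only 0.389%, 0.366% and 0.341% in EV and 0.839%, 0.859% and 0.814% in R158. The genes were chosen on these libraries, so the shares describe how much RNA was involved and carry no test.

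Each of the 6 libraries was also read over genes called without it, among genes that passed the filter on low counts with all 15 libraries. For R158 replicate 1, 219 genes were raised by at least 2-fold between the other 2 R158 and all EV libraries. The left-out library stood 1.24 above the EV mean over them (median, log2) and above every EV library for 91.8% of them. For R158 replicates 2 and 3 the values were 1.55 and 1.17 over 164 and 256 raised genes, with 99.4% and 94.9% above every EV library. Over lowered genes chosen in the same way, the 3 R158 libraries stood at -1.55, -1.43 and -1.19, and lay below every EV library for 97.6%, 99.4% and 98.9% of 498, 521 and 642 genes. The genes differ between these choices, so the 3 libraries are not ranked by them. The share of all genes tested at which a single library lies outside the range of the other line is not given here. The percentages in this and the following paragraph therefore have no base rate.

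The left-out EV libraries were measured against the other EV libraries, so their values do not compare the uniformity of the 2 lines. EV replicate 1, left out of the calls, stood 0.53 above the other EV libraries over 272 raised genes and -0.33 from them over 629 lowered genes, on the side of R158. It still lay below every R158 library for 84.6% of the raised genes and above every R158 library for 97% of the lowered ones. EV replicates 2 and 3 stood at 0.08 and -0.13 over raised genes and at -0.02 and 0.14 over lowered genes. The other EV libraries remain part of each choice. The filter on low counts and the scaling used all libraries, also the one left out of the calls, so these values are not fully independent of it.

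Calls that were made again in all 22 alternatives formed a smaller set. A gene that an alternative did not test, or gave no adjusted p, counted as not called there. The fit of the EV and R158 libraries alone tested 12832 genes, against 13676 in the main analysis. Of the 1967 genes called higher, 788 (40.1%) were called higher in every alternative, and of the 1925 called lower, 994 (51.6%) were called lower in every alternative. Of the changes of at least 2-fold, 147 of 240 rises (61.2%) and 414 of 637 falls (65%) were called each time. Changes under 1.5-fold were called each time for 403 of 1679 genes. The count of genes called in opposite directions by the main analysis and any alternative was 0.

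The largest rise among genes with a mean of at least 1 CPM had counts in R158 and in no other line. ENSRNOG00000038115 had 14, 74 and 42 counts in the R158 libraries, or 1.10, 2.61 and 2.44 CPM, and 0 counts in all 3 EV libraries. It had 0 counts in each of the 9 libraries of the other MYC lines as well. The R158 mean of 2.05 ± 0.827 CPM (SD, n = 3) was at least 57.6-fold higher than the 0.0356 CPM that 3 counts over the EV libraries together would give. The gene passed the filter on low counts only through the R158 libraries, so it had to differ, and its p-values are given as descriptions. The edgeR adjusted p was 0.00127 against EV, 0.0160 against WT, 0.00584 against R149 and 0.0155 against R323. DESeq2, run as an alternative, did not call it against EV (adjusted p 0.18), and the edgeR adjusted p against WT and R323 was 0.101 and 0.106 without R158 replicate 2. Without R158 replicate 3 it was 0.0692 against WT. It was 0.0594 and 0.0607 against WT without WT replicates 2 and 3, and 0.0665 and 0.0629 against R323 without R323 replicates 2 and 3.

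The next largest rise was shared with every MYC line. ENSRNOG00000008465 stood at 0.151, 0.0218 and 0 CPM in EV replicates 1 to 3 and at 14.8, 20.4 and 15.6 CPM in R158. No R158 library came near the EV range, and the log2 fold change was 8.36 ± 0.38 (SE) (edgeR adjusted p 5.13e-09). No other gene tested had a smaller p. Only 4 counts in the EV libraries together support the EV level. Its difference from WT was 0.01 ± 0.19, from R149 -0.18 ± 0.19 and from R323 -0.29 ± 0.19 on the log2 scale, and none was called (edgeR adjusted p 0.989, 0.859 and 0.468).

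Both of the largest falls ended close to the detection limit, from EV means of 12.8 CPM (ENSRNOG00000052758) and 4.35 CPM (ENSRNOG00000021285). ENSRNOG00000052758 stood at 15.6, 12.1 and 10.6 CPM in EV and at 0.157, 0.317 and 0 CPM in R158. The groups were far apart, and the log2 fold change was -6.10 ± 0.65 (SE) with an edgeR adjusted p of 2.61e-05, resting on 11 counts in the R158 libraries together. The other MYC lines had means of 0.138 (WT), 0.738 (R149) and 0.315 CPM (R323). R158 was not called different from any of them, with a log2 difference of -1.93 ± 0.72 from R149 (edgeR adjusted p 0.351).

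ENSRNOG00000021285 stood at 1.77, 5.59 and 5.69 CPM in EV, with replicate 1 the lowest, and at 0.0786, 0 and 0.174 CPM in R158. The log2 fold change was -5.87 ± 0.90 with an edgeR adjusted p of 3.97e-04, and only 4 counts in the R158 libraries together support the low level. Means in the other lines were 0.433 CPM in WT, 0.151 in R149 and 0.633 in R323. The R158 libraries lay below every R323 library, but the log2 difference of -3.11 ± 1.03 was not called (edgeR adjusted p 0.165).

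**Figure D4:**
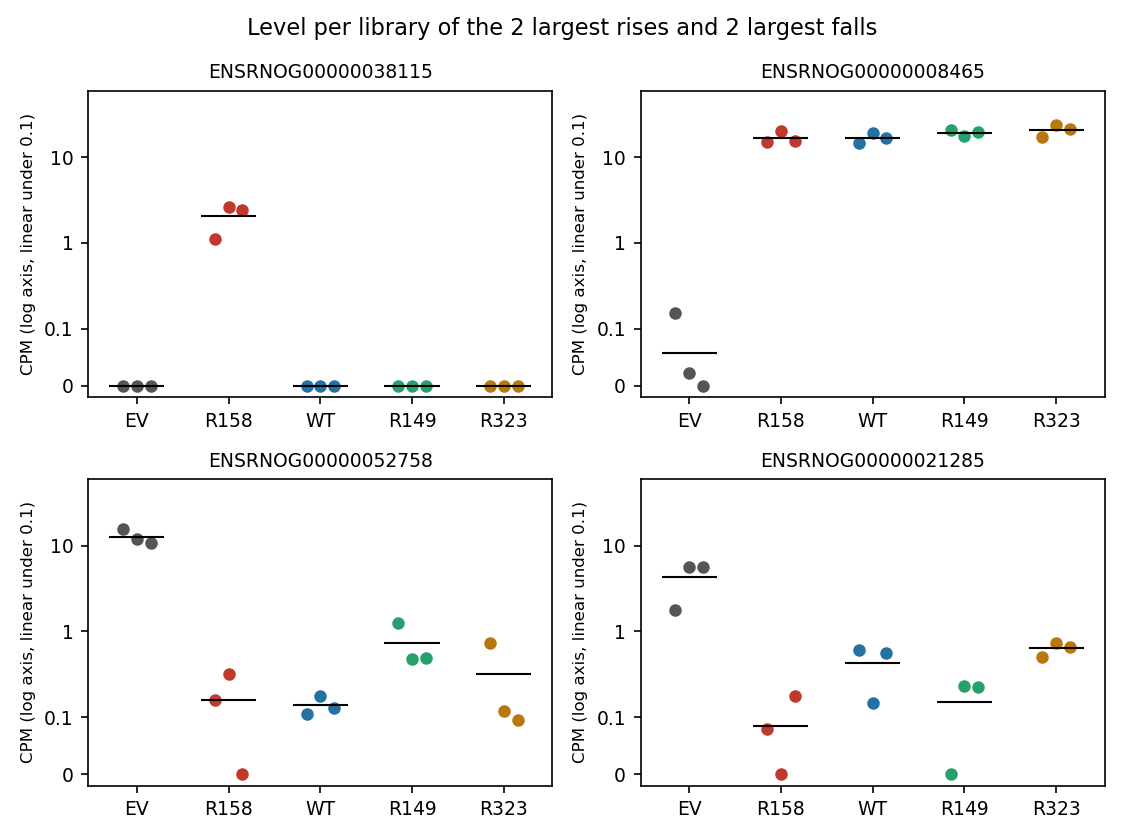
Level in CPM (vertical axis, log scale, linear under 0.1) of the 2 genes with the largest rises (top) and the 2 with the largest falls (bottom) in R158 against EV, by line (horizontal axis). Points are libraries and bars are means. ENSRNOG00000038115 has counts in the R158 libraries alone, at 1.10 to 2.61 CPM, while ENSRNOG00000008465 is at 14.5 CPM or more in all 12 MYC libraries.

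A near absence in one line and a clear level in the other was rare. A mean below 0.1 CPM in EV with at least 1 CPM in every R158 library was found for 6 genes, and the reverse for 6 genes. Of the 6 genes that appeared in R158, 2 were at 1 CPM or more in every library of WT, R149 and R323. In WT 3 of the 6 stayed below 0.1 CPM, as they did in R149, and in R323 2 did. R158 was called against WT at 3 of the 6 genes, against R149 at 4 and against R323 at 3, where 0.6%, 1.27% and 0.936% of all genes tested were called. The 6 genes were chosen for their level in R158, and 3 of them passed the filter on low counts through R158 alone, so nothing is read from these counts. Of the 6 genes that nearly vanished in R158, 0 differed from any other MYC line by the test, and their means in those lines were at most 0.633 CPM. These genes were chosen for a low level in R158 and lay near the detection limit in the other MYC lines too, where a difference is hard to call. The 0 is therefore not read as equal levels or as a shared loss.

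At the genes that R158 changed by at least 2-fold, the other MYC lines had moved to a similar degree. The median log2 fold change against EV over the 240 raised genes was 1.47 in R158, where they were chosen, 1.20 in WT, 1.35 in R149 and 1.33 in R323. Over the 637 lowered genes it was -1.55 in R158, -1.40 in WT, -1.92 in R149 and -1.62 in R323. The 4 lines share the EV libraries, so these values are set side by side and are not independent. With genes at 0 in a whole group set to the bound that 3 counts allow, the R158 medians were unchanged at 1.47 and -1.55.

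The difference between R158 and another MYC line was called at few of these 877 genes. It was called for 37 genes against WT (4.22%), 59 against R149 (6.73%) and 32 against R323 (3.65%), where 0.6%, 1.27% and 0.936% of all genes tested were called in the same contrasts. Among the raised genes R158 stood further from EV than WT at 8 genes and nearer at 0, than R149 at 22 and 3, and than R323 at 10 and 3. Among the lowered genes it stood further from EV than WT at 18 and nearer at 11. Compared with R149 the numbers were 5 and 29, and with R323 4 and 15. Over all genes tested, R158 was called higher and lower than WT at 0.285% and 0.314% of genes, than R149 at 1% and 0.271%, and than R323 at 0.578% and 0.358%. Genes chosen for a large change in R158 favour differences further from EV. The lowered genes nearer to EV than in R149 and R323 go the other way. Over all genes, however, R158 was also called higher more often than lower against these lines. Whether the lean at the lowered genes exceeds that was not tested. Of the raised genes not called against WT, 50.9% had an interval that lay inside 2-fold, and of the lowered genes 41.1%.

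These counts moved with the libraries and the model. With the replicate number as a block, which pairs libraries of equal number, they were 73 against WT, 104 against R149 and 72 against R323. In WT all 3 R158 libraries correlated best with the library of their own number, but 1 did in R149 and 1 in R323. Pairing by number is thus not established for R149 and R323. Against WT the count was 21, 11 and 14 without R158 replicates 1, 2 and 3, 65, 13 and 9 without WT replicates 1, 2 and 3, and 65 without R149 replicate 1, a library of neither line in this contrast. Against R149 it was 32, 30 and 28 without the R158 replicates in turn, and 27 and 29 without R149 replicates 2 and 3. Against R323 it was 18, 16 and 17 without R158 replicate 2, R323 replicate 2 and R323 replicate 3.

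At 14 genes R158 differed from EV and, in 1 direction, from all 3 other MYC lines. All 4 contrasts use the same R158 libraries, so an accident of those cultures would enter each of them. At 1 further gene R158 differed from all 3 MYC lines, but lay below WT and above R149 and R323, and was not called against EV. At all 14 genes the R158 libraries lay outside the range of the 9 libraries of the other MYC lines. The 14 genes were chosen by calls on these same libraries, so this describes them and adds no support. The share of all genes tested that separate in this way is not given here. The genes fell into 3 patterns, with R158 highest of the 5 lines at 7, lowest at 4, and between EV and the other MYC lines at 3.

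Of the 7 genes highest in R158, 4 were near the detection limit elsewhere, among them ENSRNOG00000038115, and passed the filter on low counts only through R158. Their calls are no support for a difference. The other 3 were expressed in every line. The most abundant of the 7 stood at 71.0, 77.6 and 70.5 CPM in EV and at 143, 147 and 116 CPM in R158, while the 9 libraries of the other MYC lines lay between 74.0 and 98.9 CPM. Of the 4 at the limit, the most abundant stood at 1.73, 3.24 and 2.79 CPM in R158, at most 0.0537 CPM in EV and at most 0.291 CPM in any other MYC library. The 4 genes lowest in R158 included one at 8.53, 7.97 and 7.46 CPM in EV and 1.81, 2.89 and 2.03 CPM in R158. The other MYC libraries kept that gene between 5.11 and 8.06 CPM.

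The 3 genes between EV and the other MYC lines fell in R158 against EV, and were lower still with WT, R149 and R323. The clearest of them stood at 71.8, 61.7 and 66.8 CPM in EV, 26.1, 17.5 and 19.3 CPM in R158, and 5.42 to 10.5 CPM in the 9 other MYC libraries. Its log2 fold change against EV was -1.68 in R158, -3.43 in WT, -2.80 in R149 and -2.97 in R323. The differences of R158 from WT, R149 and R323 were 1.75, 1.12 and 1.29, with edgeR adjusted p of 1.15e-04, 0.00268 and 0.00151. The other 2 genes of this kind stood at means of 99.8 and 50.0 CPM in EV, 35.9 and 28.1 in R158, and 13.3 to 19.9 in the other MYC lines.

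**Figure D5:**
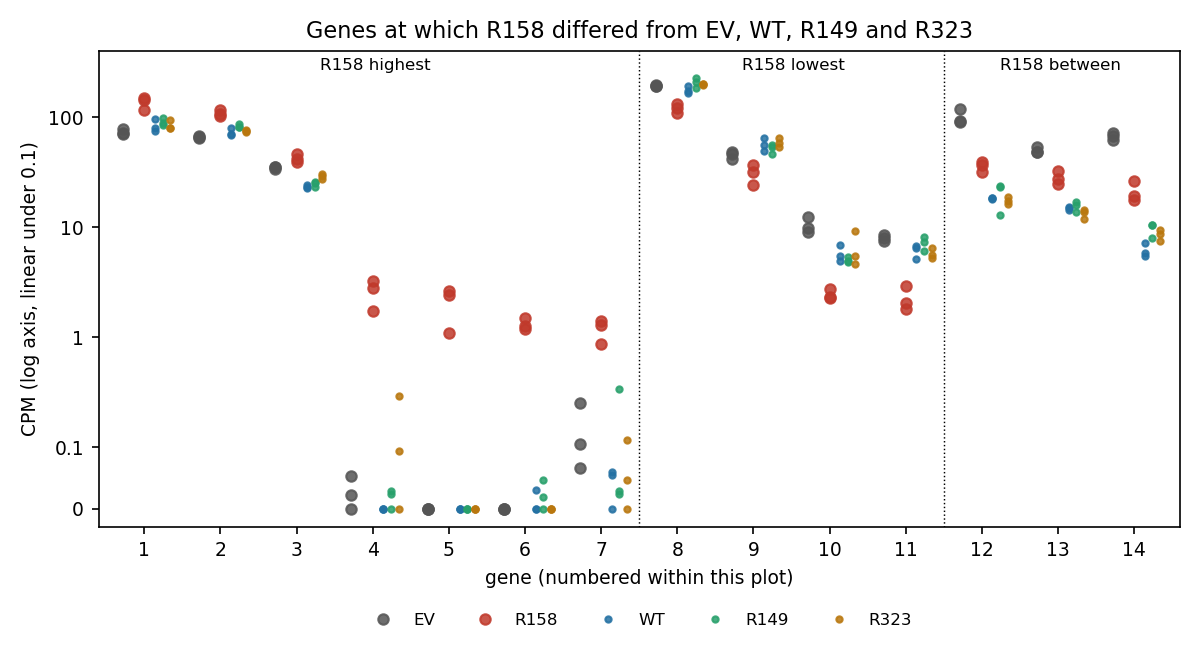
Level in CPM (vertical axis, log scale, linear under 0.1) in every library of the 14 genes at which R158 differed from EV and from WT, R149 and R323 (horizontal axis, genes numbered for this plot only). R158 (red) is highest at 7 genes, lowest at 4 and between EV (grey) and the other MYC lines at 3.

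The 14 genes became 45 with the replicate number as a block, which kept all 14, and 33 with DESeq2, which kept 13. They became 7, 7 and 8 without R158 replicates 1, 2 and 3, of which 7, 5 and 7 were among the 14. Without WT replicates 2 and 3 they were 8 and 5, without R149 replicate 2 they were 9, and without R323 replicates 2 and 3 they were 7 and 7. In all 21 alternatives that hold the other lines, 3 genes were called each time, 2 of them among the genes between EV and the other MYC lines.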

How the data were processed

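Polyadenylated RNA of 15 cultures was sequenced from stranded dUTP libraries, per the labels' protocols. TopHat2 2.1.0 and the rat build Rnor_6.0 are named in the submitters' processing notes. Which program counted the reads, with which strand option and gene models, is not given in the sources used here, so overlapping genes and near-identical copies are uncertain. The deposited values were raw counts per gene, 1 table per library, with 0 columns unused.

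The tests used edgeR 4.0.16 (R 4.3.3) with filterByExpr at its minimum of 10 counts, TMM factors, and 1 quasi-likelihood fit of all 15 libraries with the line as the only term. Contrasts of R158 with EV, WT, R149 and R323 were each adjusted by Benjamini-Hochberg over 13676 genes, and a gene was called below 0.05. Standard errors were the log2 fold change over the square root of F. The common coefficient of variation was 16.1%. Log2 CPM used a prior count of 2. The procedure was tried on simulated counts, and the outcome is not given here. Replicate pairs of EV and R158 were not repeat deposits of 1 library: chi-square per degree of freedom was 7.97 or more.

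The members, the tests, 32 gene lists and 6 marker lists were chosen with earlier results of these data known. The lists need gene symbols, so they were not used and no list result is given. Named genes were to have a symbol. Since no identifier could be paired with one, the rule's own fallback was used: the 2 largest rises and 2 largest falls that were called, averaged 1 CPM or more over EV and R158, and showed no overlap between their libraries. Sequences were not printed for the same reason. Libraries of equal replicate number deviated with correlations over 0.1 in each pair for R158 with WT (0.402 to 0.498), R149 (0.127 to 0.392) and R323 (0.128 to 0.499). For R158 with EV they ran from 0.0843 to 0.176. The own number was the best match for all 3 R158 libraries in EV and in WT, but for 1 in R149 and 1 in R323. Alternatives used DESeq2 1.42.0, limma 3.58.1 with voom, other scalings, no filter, the 6 libraries alone, the block, and each library left out.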

Additional observations from a re-analysis of the deposited data

Results flagged for a closer look

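ENSRNOG00000038115 was picked out by the test of R158 against each other MYC line. It passed the filter on low counts only through the R158 libraries, where it was high, so these p-values describe it and are no independent support. The edgeR adjusted p was 0.016 for R158 against WT, 0.00584 against R149 and 0.0155 against R323. It had 14, 74 and 42 counts in the R158 libraries and 0 in each of the other 12. With DESeq2 the adjusted p was 0.496, 0.492 and 0.373 for these differences, and with limma-voom it was 4.85e-04, 9.07e-05 and 4.32e-04.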

How the results depend on the processing

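Over 22 alternatives the genes called in R158 against EV numbered between 2108 and 5334. Leaving out 1 library gave 2108 to 4436 genes called, 947 to 2128 higher, 1161 to 2308 lower, and 153 to 275 rises and 461 to 782 falls of at least 2-fold. The replicate block gave 5334 calls, 2693 higher and 2641 lower, and changed no count against EV by more than 1.5 times. Each R158 library correlated best with the EV and the WT library of its own number, a hint of pairing that the labels do not state. Only 1 R158 library did so in R149 and 1 in R323.

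Of the genes R158 changed by at least 2-fold, those that differed from WT numbered 71 with DESeq2, 22 with limma-voom, 73 with the block and 9 to 65 with 1 library left out. Those that differed from R149 numbered 104 with the block and 27 to 70 with 1 library left out. Those that differed from R323 numbered 75 with DESeq2, 72 with the block and 16 to 47 with 1 library left out. Genes at which R158 differed from every line numbered 33 with DESeq2, 45 with the block and 5 to 19 with 1 library left out. The cause of these shifts was not tested. The fit of EV and R158 alone has no other line and gave no value for them. ENSRNOG00000038115 kept its direction and lost its call against EV in 1 alternative, DESeq2 (adjusted p 0.18, in a range of 3.34e-05 to 0.18), and the other 3 named genes were called in all 22. Leaving out WT, R149 and R323 libraries was added after the data were seen. Alternatives for the gene lists were not run.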
